A study of Mus musculus with 62 samples.

Results

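The 123 mouse genes described here encode voltage-gated sodium, calcium and potassium channels, hyperpolarisation-activated channels, the other potassium channel families and their accessory subunits. They were taken from a table of 47643 genes by their symbols (Kcn, Scn, Cacna1, Cacna2d, Cacnb and Hcn names), which matched 126 genes. Kcnj8, Kcnj10 and Kcnj13, potassium channels of vessel walls, astrocytes and choroid plexus, were left out. Polyadenylated RNA of the neocortex had been sequenced from female mice injected at 2 months of age with cachectic melanoma cells (CAC), with non-cachectic melanoma cells (NCAC) or by mock injection (Con, called mock below). Cachexia is the loss of muscle and adipose tissue that some tumours bring about. The neocortex was sampled at 2, 4, 6 and 8 weeks, which gives 12 groups and 62 libraries: CAC at 8 weeks had 7 libraries and every other group 5. The design text calls the hosts NCI Ath/nude, mice without a thymus, whereas the sample labels call them C57BL6/J, so the strain is not stated here as a fact.

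Sodium and calcium channels open when the membrane depolarises and carry the upstroke of the action potential and the calcium entry that releases transmitter. Potassium channels return the membrane to rest, set how often a cortical neuron fires, and in the inward rectifier and tandem-pore families hold the resting potential. Many pore-forming alpha subunits work with accessory subunits that alter their gating and carry them to the surface. The silent Kv alpha subunits form no channel alone but modify the Kv2 channels.

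The values are TPM, transcript abundance scaled per exon length and to the same sum in every library, so levels can be compared between genes. Estimated from the steps of the low values, depth was 45.0 to 50.8 M reads, so that a transcript of 2000 exon bases at 1 TPM rested on 28.2 reads in the median library. A gene was tested where its mean was at least 1 TPM, which held for 99 of the 123 genes and for 14473 genes in all. Every difference below is on the log2(TPM + 1) scale, comes from a single limma model of the 12 groups, and is given with its standard error and a Benjamini-Hochberg p adjusted over all 14473 genes. A gene passed at an adjusted p under 0.05. The labels call the libraries biological replicates. In bulk tissue, fewer cells of a type and less RNA per cell cannot be told apart. Excitatory neuron markers, 8 genes, summed to between 2897 and 5934 TPM over the 62 libraries. Some libraries stood apart in marker genes of other tissue: CAC replicate 1 at 4 weeks stood at -3.16 relative to the median of all libraries in striatum markers (mean log2 level), and CAC replicate 3 at 8 weeks at 4.16 in red blood cell markers. Mock replicate 5 at 2 weeks stood at 6.07 in hypothalamus and pituitary markers and at 2.42 in thalamus markers.

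The promoters of 3 members are shown because their results recur below. Kcnab2 encodes a cytosolic beta subunit of the Kv1 channels. It was called higher in CAC than in mock mice at 2 and 8 weeks, and than in NCAC mice at 6 and 8 weeks. The 2 week call was lost without mock replicate 5 of that week (adjusted p = 0.119, limma). The 6 week call was lost under another scaling of the libraries (TMM). Kcna6 encodes a Kv1 alpha subunit and was lower in CAC than in mock mice at 8 weeks. Kcnj3 encodes the shared subunit of G-protein-gated inward rectifiers and was higher in both melanoma groups than in mock mice at 2 weeks. Each stretch runs from 250 bases before to 50 bases after the transcription start (RefSeq, GRCm38.p6), 5′ to 3′ on the gene's strand, with every CG dinucleotide in capitals. The Kcnab2 stretch is chr4:152477500-152477799 on the minus strand, the farthest upstream of 3 listed starts, the Kcna6 stretch is chr6:126740625-126740924 on the minus strand, and the Kcnj3 stretch is chr2:55435720-55436019 on the plus strand.
Kcnab2: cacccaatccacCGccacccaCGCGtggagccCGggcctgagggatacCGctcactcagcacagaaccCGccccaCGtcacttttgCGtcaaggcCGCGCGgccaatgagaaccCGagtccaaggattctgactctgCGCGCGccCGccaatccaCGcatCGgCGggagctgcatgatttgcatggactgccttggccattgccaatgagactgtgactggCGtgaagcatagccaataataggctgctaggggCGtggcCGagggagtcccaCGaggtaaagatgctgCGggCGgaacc
Kcna6: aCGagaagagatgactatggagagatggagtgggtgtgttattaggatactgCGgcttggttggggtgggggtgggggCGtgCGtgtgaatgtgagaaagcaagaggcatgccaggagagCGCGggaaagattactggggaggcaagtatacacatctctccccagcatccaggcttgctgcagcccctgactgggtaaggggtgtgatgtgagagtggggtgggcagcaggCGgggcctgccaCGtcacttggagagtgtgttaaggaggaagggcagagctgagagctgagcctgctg
Kcnj3: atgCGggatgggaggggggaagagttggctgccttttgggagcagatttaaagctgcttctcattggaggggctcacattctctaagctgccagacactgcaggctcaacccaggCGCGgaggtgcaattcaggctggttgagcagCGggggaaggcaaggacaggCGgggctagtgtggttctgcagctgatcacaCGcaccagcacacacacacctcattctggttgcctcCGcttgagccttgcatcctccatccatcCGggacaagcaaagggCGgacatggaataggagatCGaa
The Kcnab2 stretch holds 25 CG dinucleotides, the Kcnj3 stretch 10 and the Kcna6 stretch 8. The Kcnab2 stretches at listed starts 2 and 3, not printed, hold 5 and 3. The median was 9.5 over 122 promoters of the 88 members with an entry and 7 over all 32851 promoters of this length. A search of both strands for the glucocorticoid receptor core ACANNNTGT, the E-box CACGTG, the cAMP response element TGACGTCA and the TATA box TATAAA, none of which contains another, found no match in these 3 stretches. ACANNNTGT is found in 4.92% of member promoters and 6.85% of all promoters, CACGTG in 5.74% and 7.15%, TGACGTCA in 0% and 1.79%, and TATAAA in 4.1% and 13.6%.

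The 123 channel genes summed to 5218 TPM, which is 0.522% of all TPM. Accessory subunits took the top places, as the plot of levels by class shows. Kcnab2 averaged 253 TPM over the 62 libraries, the calcium channel beta subunit Cacnb3 245 TPM, and the sodium channel beta subunits Scn4b and Scn2b 236 and 181 TPM. The 5 members of highest level held 31.6% of the summed level of all members. Another 5 members reached 100 TPM: the inward rectifiers Kcnj4 (177 TPM) and Kcnj9 (115 TPM), the Kv4 partner Kcnip2 (142 TPM), the ether-à-go-go family channel Kcnh3 (135 TPM) and the hyperpolarisation-activated channel Hcn2 (101 TPM). A further 66 members lay between 10 and 100 TPM, 23 between 1 and 10 TPM, and 24 below 1 TPM. The 24 untested members were, among sodium channels, the muscle channel Scn4a (0.0085 TPM) and the sensory neuron channels Scn9a, Scn10a (0.346 TPM) and Scn11a (0.149 TPM). Among calcium channels they were Cacna1f and Cacna2d4, and among potassium channels and their partners Kcna7, Kcna10, Kcne1, Kcne3, Kcnh8, Kcnj1, Kcnj5, Kcnj15, Kcnk5, Kcnk7, Kcnk15, Kcnk16, Kcnk18, Kcnmb1, Kcnmb3, Kcnn4, Kcnq1 and Kcnv2. Cacna2d4 (0.902 TPM) lay just below the threshold and Scn7a (1.31 TPM) and Kcne2 (1.4 TPM) just above it. None of the 123 was at 0 in every library.

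By class, the 4 sodium channel beta subunits held 23.3% of the summed channel level and the 9 sodium channel alpha subunits 2.81%. Scn8a, the sodium channel of axon initial segments and nodes, averaged 75.5 TPM, Scn1a, prominent in interneurons, 53.1 TPM, and Scn3a, the mainly fetal isoform, 12.7 TPM. Scn2a, the other main cortical isoform, stands in the table under its older symbol Scn2a1, which the symbol rule does not match, at group means of 86.5 to 118 TPM. With it the alpha subunits would hold 4.74% of the channel total. Accessory Kv subunits held 13.2%, Kv1 to Kv4 alpha subunits 12.2% and accessory calcium channel subunits 12.1% of the channel total, against 4.66% in the 9 calcium channel alpha1 subunits. Inward rectifiers held 9.05%, KCNQ and KCNH subunits 8.85%, tandem-pore channels 3.9%, silent Kv subunits 3.89%, calcium- or sodium-activated channels 3.63% and HCN channels 2.43%. Among Kv alpha subunits Kcna2 averaged 85.3 TPM, Kcnd2, which carries the A-type current, 66.4 TPM, and the fast-spiking channels Kcnc1 and Kcnc2 65.4 and 46.5 TPM. Kcna1 averaged 49.3 TPM, Kcnd3 27.4 TPM and Kcna4 17.9 TPM. The M-current subunits Kcnq3 and Kcnq5 averaged 65.7 and 40.1 TPM. The silent subunits were led by Kcnf1 (79.2 TPM) and Kcnv1 (56.3 TPM), the tandem-pore channels by Kcnk1 (84.9 TPM) and Kcnk2 (41.0 TPM), with Kcnk9 at 26.7 TPM, and the large-conductance calcium-activated channels by the beta subunit Kcnmb4 (47.0 TPM) and the alpha subunit Kcnma1 (44.5 TPM). The sodium-activated Kcnt1 averaged 42.2 TPM and the small-conductance Kcnn2 13.8 TPM. Among calcium channel alpha1 subunits Cacna1b averaged 42.6 TPM, Cacna1e 41.2 TPM, Cacna1a 37.9 TPM, the T-type Cacna1g 26.6 TPM and the L-type Cacna1c 19.0 TPM. Their partners Cacnb4, Cacna2d1 and Cacna2d2 averaged 96.4, 57.3 and 31.5 TPM. The accessory subunits Kcnip3, Kcnab1 and Kcnip4 averaged 86.1, 50.5 and 47.6 TPM, and Kcnj3 and Kcnj6, both G-protein-gated, 73.8 and 10.1 TPM.

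Channel genes varied somewhat more than genes at large between libraries of a group. The median standard deviation of log2(TPM + 1) within groups was 0.171 over the 99 tested members and 0.138 over all tested genes, and by class it ran from 0.147 in accessory calcium channel subunits to 0.220 in silent Kv subunits. The ratio of the highest to the lowest of the 12 group means had a median of 1.31 over members and 1.24 over all tested genes. It was largest in Kcne2 (5.67), Hcn4 (1.86), Kcna5 (1.78), Kcng2 (1.75) and Kcnab3 (1.74).

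At 2 weeks, 16 of the 99 tested channel genes rose in CAC relative to mock mice and none fell. That is 16.2% of members, where 4.26% of all tested genes passed in either direction, 3.66% higher and 0.601% lower. The median difference was 0.16 over members and 0.04 over all tested genes, and 71 of the 99 members were above 0. Called genes were spread over 10 of the 12 classes: 3 of 11 KCNQ and KCNH subunits, 2 each of 7 accessory calcium channel subunits, 9 accessory Kv subunits, 9 silent Kv subunits and 9 inward rectifiers, and 1 each in 5 other classes. No calcium channel alpha1 subunit and no calcium- or sodium-activated channel passed.

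**Figure D1:**
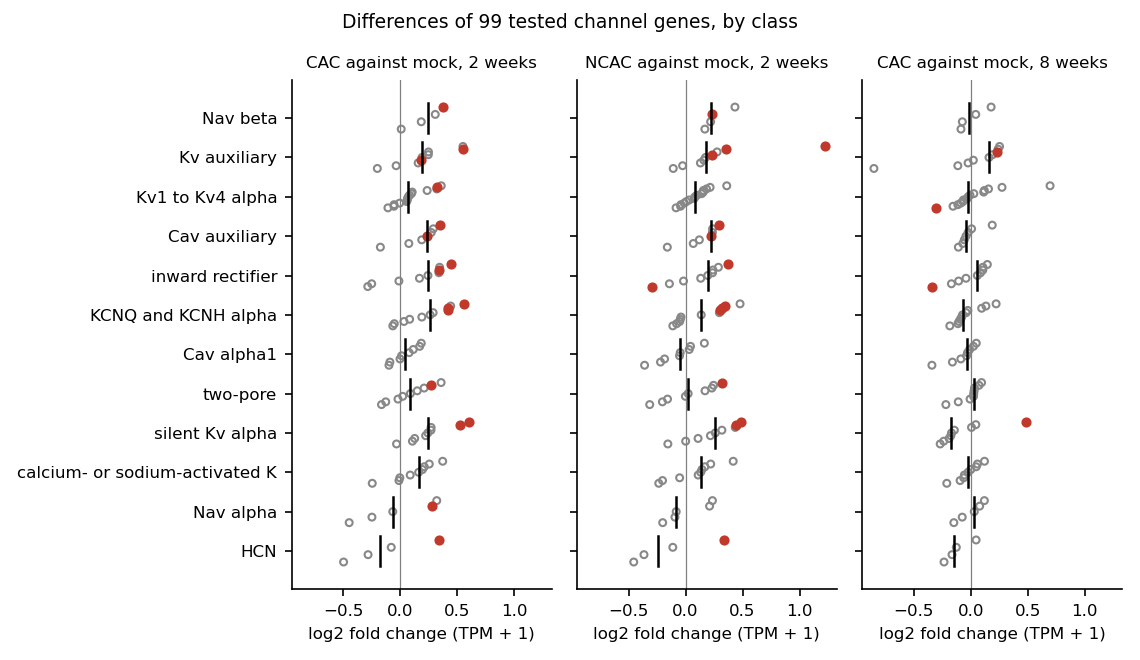
Differences in log2(TPM + 1) of the 99 tested channel genes, a point per gene, by class (rows) for CAC against mock at 2 weeks, NCAC against mock at 2 weeks and CAC against mock at 8 weeks. Filled points passed at an adjusted p under 0.05 (16, 15 and 4 genes), open points did not, and black bars are class medians, which lie above 0 in 10 of 12 classes in the left panel.

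The inward rectifiers gave the smallest p-values. Kcnj3 was at 85.0, 84.1, 67.16, 66.01 and 87.45 TPM in CAC mice and at 44.2, 60.4, 64.6, 64.7 and 52.3 TPM in mock mice. Every CAC library was above every mock library, and the difference was 0.44 ± 0.09 (SE, adjusted p = 0.00717, limma). Kcnj11, the pore of the ATP-sensitive potassium channel, was at 34.72, 37.96, 40.35, 34.4 and 48.8 TPM in CAC mice and at 28.63, 31.26, 29.96, 33.75 and 29.49 TPM in mock mice. Again the groups did not overlap, and the difference was 0.34 ± 0.07 (adjusted p = 0.00717). In CAC against mock at 2 weeks 7 members (7.07%) lay wholly above the mock libraries and none wholly below, where 3.03% of all tested genes lay above and 1.16% below. Cacna2d1, Cacna2d3, Kcns2 and Kcnq3 were also among them.

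Among KCNQ and KCNH channels, Kcnq5, an M-current subunit, was at 41.5, 49.2, 40.3, 36.4 and 45.8 TPM in CAC mice and at 28.02, 36.46, 36.85, 32.75 and 24.69 TPM in mock mice, a difference of 0.42 ± 0.09 (adjusted p = 0.0099). The groups met in that a single CAC library, replicate 4, was below the highest mock values. Kcnh1, a voltage-gated ether-à-go-go channel, averaged 48.9 ± 7.1 TPM in CAC mice and 36.3 ± 4.72 TPM in mock mice (SD, n = 5 each), a difference of 0.42 (adjusted p = 0.0106). Kcnh7, of the same family, averaged 32.4 ± 6.86 TPM in CAC mice and 22.2 ± 6.63 TPM in mock mice, a difference of 0.56 (adjusted p = 0.0399).

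Silent Kv subunits gave 2 of the 4 largest differences among the called genes. Kcns1 was at 16.6, 12.6, 16.5, 16.2 and 24.8 TPM in CAC mice and at 8.166, 15.43, 10.73, 15.03 and 7.069 TPM in mock mice, a difference of 0.61 ± 0.15 (adjusted p = 0.0195). Kcnv1 was at 66.48, 61.95, 57.79, 48.6 and 70.1 TPM in CAC mice and at 35.6, 49.1, 51.8, 50.4 and 28.2 TPM in mock mice, a difference of 0.52 ± 0.13 (adjusted p = 0.0156). In both genes the 2 lowest mock libraries were replicates 1 and 5, and the ranges overlapped.

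Accessory subunits and a few pore-forming genes made up the rest of those named. Scn8a averaged 77.1 ± 8.65 TPM in CAC mice and 63.3 ± 5.39 TPM in mock mice (adjusted p = 0.0417). The Kv1 beta subunits Kcnab3 and Kcnab2 differed by 0.55 and 0.18 (adjusted p = 0.0203 and 0.0475). The calcium channel beta subunits Cacnb4 and Cacnb1 differed by 0.34 and 0.23 (adjusted p = 0.0432 and 0.0369). Kcnk1, a tandem-pore channel, differed by 0.27 (adjusted p = 0.049). Kcnc1, Kcnc2, Kcnd2, Kcnt1, Scn3b, Cacna1c and Hcn2 did not pass, with differences between -0.08 (Hcn2) and 0.1 (Kcnd2).

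**Figure D2:**
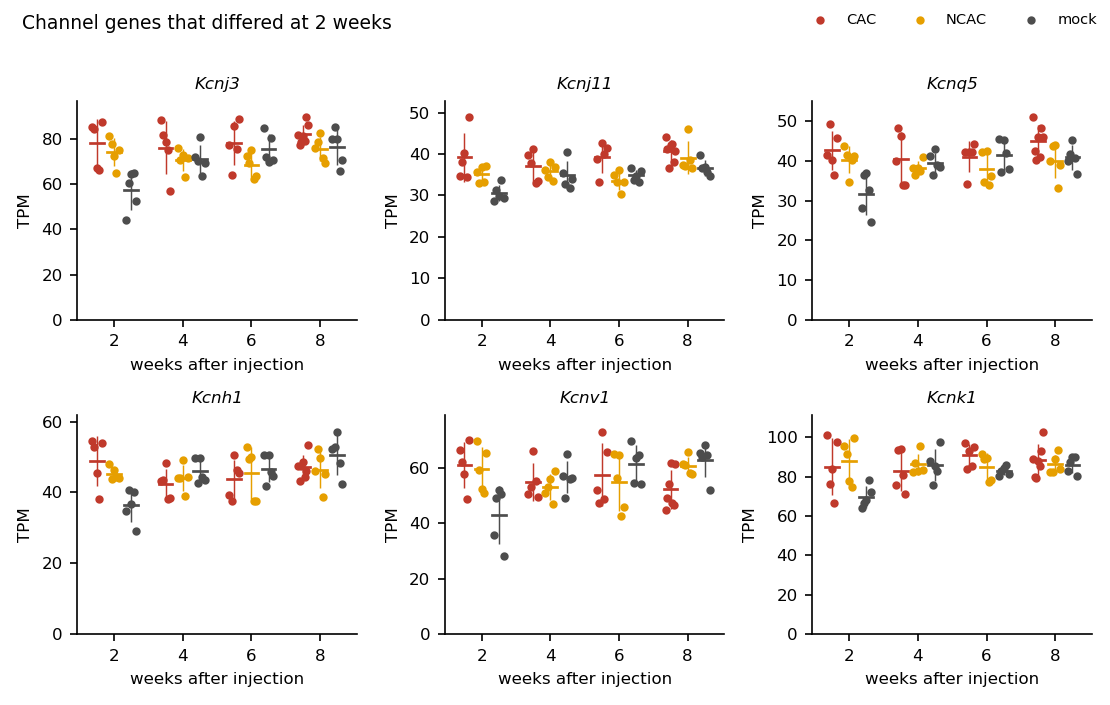
TPM per library (points), group mean (bar) and SD (line) of 6 channel genes at 2, 4, 6 and 8 weeks, with CAC, NCAC and mock side by side in each week and axes starting at 0. At 2 weeks the CAC libraries of Kcnj3 (66.0 to 87.5 TPM) lie above the mock libraries (44.2 to 64.7 TPM), while at later weeks the arms overlap.

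NCAC mice were set against the same mock libraries at 2 weeks, and 14 members were higher and 1 lower, 15.2% of members, where 8.69% of all tested genes passed, 5.85% higher and 2.84% lower. The median was 0.13 over members and 0.02 over all tested genes. Kcnj3 was at 81.0, 77.8, 72.2, 64.6 and 74.8 TPM in NCAC mice, against the mock values above, a difference of 0.38 ± 0.09 (adjusted p = 0.0135). Also called higher were Kcnk1, Kcnv1, Kcnq5, Scn2b, Cacna2d3, Kcnh1, Cacnb1, Kcnab1, Kcnq3, Kcng1, Kcne2 and Kcnip3, with differences of 0.22 (Cacnb1) to 0.48 (Kcnv1) apart from Kcne2 at 1.22. Kcnh1 was at 47.9, 43.8, 46.3, 44.4 and 44.1 TPM in NCAC mice and at 34.7, 40.8, 36.7, 40.3 and 29.2 TPM in mock mice with no overlap, a difference of 0.32 ± 0.1 (adjusted p = 0.0317). In all 5.05% of members lay wholly above mock, where 2.78% of all tested genes did, and Kcnip3, Kcnq3 and Scn8a were among them. Kcnj16, which forms a glial inward rectifier together with Kcnj10, was the one called lower: it was at 28.8, 33.2, 34.7, 31.6 and 28.6 TPM in NCAC mice and at 38.4, 38.6, 41.6, 33.5 and 41.7 TPM in mock mice, a difference of -0.3 ± 0.08 (adjusted p = 0.0224). Astrocyte markers summed to 1589 to 2104 TPM in NCAC and 1947 to 2308 TPM in mock libraries, with none of 7 passing, and their part in the Kcnj16 difference was not tested. Scn2a1 averaged 109 ± 9.89 TPM in NCAC mice and 86.5 ± 7.56 TPM in mock mice (adjusted p = 0.0314).

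In both comparisons 7 members passed, among them Kcnj3, Kcnh1, Kcnk1, Kcnq5, Kcnv1 and Cacnb1, which is 43.8% of the 16 and 50% of the 14 genes called higher, and the comparisons share the mock libraries. The matching overlap over all tested genes is not given here, so this count does not show an overlap particular to channel genes. Set against each other at 2 weeks, CAC and NCAC mice differed in none of the 99 members by limma, where none of all tested genes passed. At an unadjusted p under 0.05 there were 3 members and 614 of the 14473 tested genes. The lowest p-values were those of Cacna1a (41.9 ± 6.3 TPM in CAC and 35.7 ± 2.4 TPM in NCAC mice, adjusted p = 0.998) and Kcng1 (14.8 ± 3.62 and 18.6 ± 3.89 TPM, adjusted p = 0.998). Mock mice at 2 weeks had the lowest of the 12 group means in 56 of the 99 members (56.6%), where the share was 32% over all tested genes. They had it in all 16 members called higher in CAC and all 14 called higher in NCAC mice at 2 weeks. Those members were called because mock values at 2 weeks were lower, so a low mock mean is partly fixed by that choice. The same share among all genes called higher is not given here. The summed level of all channel genes was 5355 ± 422 TPM in CAC, 5128 ± 169 TPM in NCAC and 4585 ± 274 TPM in mock mice at 2 weeks, and 5085 to 5515 TPM in the group means of the later weeks. Week 2 libraries ran on lane 3 and later mock libraries on lane 4. Lane and week can therefore not be told apart between week 2 and later mock groups.

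Some markers of cell types and neighbouring regions also differed in these comparisons. Inhibitory interneuron markers summed to 1567 to 1996 TPM in CAC, 1597 to 2069 in NCAC and 1515 to 1866 in mock libraries. Oligodendrocyte markers summed to 2151 to 3013 TPM in CAC, 2154 to 3014 in NCAC and 2163 to 3771 in mock libraries. Of 8 excitatory neuron markers, 4 (among them Slc17a7, Tbr1 and Nrgn) were higher in both CAC and NCAC mice, with list medians of 0.43 and 0.41, and the summed level ran from 4451 to 5934 TPM in CAC, 4193 to 5445 TPM in NCAC and 2897 to 5269 TPM in mock libraries. Of 9 endothelial and mural markers, 2 were lower in CAC and 7 in NCAC mice, and none of the 7 astrocyte markers passed in either. Thalamus markers summed to 73.4 to 183 TPM in CAC, 96.8 to 133 TPM in NCAC and 133 to 679 TPM in mock libraries, with 0 and 2 of 9 lower. With scores of 6 marker lists as terms in the model no member passed in either comparison. These lists were striatum, thalamus, choroid plexus, erythroid, olfactory, and hypothalamus with pituitary. The excitatory neuron, endothelial and astrocyte lists were not among the terms. The share over all tested genes in that fit is not given here. What part any of these markers had in the results was not tested. The calls at 2 weeks also changed when single libraries were left out and when only the groups compared were fitted. Without mock replicate 5, CAC against mock kept 3 calls, among them Kcnj3 and Kcnj11 (both adjusted p = 0.0377), and NCAC against mock 4. When other single libraries were omitted, the CAC count was 2 (CAC replicate 5 omitted), 4 (CAC replicate 1), 5 (mock replicate 1), 10 (CAC replicate 2 or 3, or mock replicate 2), 25 (mock replicate 4) and 28 (CAC replicate 4). The NCAC count was 0 without NCAC replicate 2 and 1 without NCAC replicate 1 or 5. Shares over all tested genes without these single libraries are not given here. Fitted on only the groups compared, neither comparison called a member, and the fit of CAC against mock called none of all tested genes. The share over all tested genes is not given for the fit of NCAC against mock. Why these counts differ from those of the full model was not tested. The differences of Kcnj3, Kcnj11 and Kcnq5 in CAC against mock stayed between 0.36 and 0.5, 0.26 and 0.38, and 0.34 and 0.48 over the 17 alternatives for each.

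Kcnh7, Kcnj3, Cacnb4 and Kcna6 overlap exons of a gene on the other strand (Gca over 696 bases, Gm26794 over 1621, A430018G15Rik over 1433 and Gm26673 over 2355). Kcnk3 overlaps Gm9899 over 229 bases. Whether strand was used in counting is not stated, so reads of the pairs may be mixed. Gca averaged 13.0 TPM, Gm26794 2.465 TPM, A430018G15Rik 1.077 TPM, Gm26673 4.362 TPM and Gm9899 12.3 TPM.

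No member passed in CAC against mock at 4 weeks, where 0.0415% of all tested genes did, or at 6 weeks, where 1.63% did (1.2% higher). At 4 weeks all CAC libraries had run on one sequencing lane and all mock libraries on another, so lane and group can be told apart only through the NCAC libraries, 4 of which shared the CAC lane and 1 the mock lane; with lane as a term 0 members passed. At an unadjusted p under 0.05 limma counted 12 and 7 of the 99 members, and 1893 and 2027 of the 14473 tested genes. No member lay wholly above mock at 4 weeks, where 0.636% of all tested genes did. The lowest p-values at 4 weeks were those of Scn2b, which averaged 166 ± 13.1 TPM in CAC mice and 189.6 ± 13.1 TPM in mock mice (adjusted p = 0.246), and Kcnk3, a tandem-pore channel, which averaged 17.8 ± 2.95 TPM in CAC mice and 15.1 ± 0.978 TPM in mock mice (adjusted p = 0.27). At 6 weeks they were Kcna6, which averaged 43.3 ± 6.83 TPM in CAC mice and 52.9 ± 1.54 TPM in mock mice (adjusted p = 0.0855), and Kcnab2. Kcnab2 was at 271, 268, 272, 274 and 279 TPM in CAC mice and at 238, 241, 235, 254 and 250 TPM in mock mice. The groups did not overlap, though the difference of 0.17 ± 0.05 missed the threshold (adjusted p = 0.107). Kcnab2 alone lay wholly above mock at 6 weeks, where 2.65% of all tested genes did, and Hcn2, Kcnj16 and Kcnk13 lay wholly below, where 1.05% did. In NCAC against mock none of the 99 members passed at 4, 6 or 8 weeks by limma, where no tested gene did. At an unadjusted p under 0.05 there were 0, 1 and 4 members, and 89, 953 and 635 of the 14473 tested genes. The lowest p-values at 4 weeks were those of Scn3b, a sodium channel beta subunit, at 65.9 ± 3.79 TPM in NCAC and 73.8 ± 4.82 TPM in mock mice, and the tandem-pore channel Kcnk9, at 20.9 ± 3.98 and 24.9 ± 4.98 TPM. At 6 weeks Kcnk9 averaged 21.8 ± 4.79 TPM in NCAC and 27.4 ± 3.78 TPM in mock mice (adjusted p = 0.662). At 8 weeks they were Kcnj16, at 30.9 ± 4.41 TPM in NCAC and 35.4 ± 4.93 TPM in mock mice, and the T-type calcium channel Cacna1h, at 20.9 ± 2.81 and 24.9 ± 0.909 TPM (both adjusted p = 0.895).

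At 8 weeks, 2 channel genes were higher and 2 lower in CAC than in mock mice. That is 4.04% of members, where 8.57% of all tested genes passed (4.91% higher), and the medians were -0.02 over members and 0.02 over all tested genes. Kcnab2 was at 249 to 322 TPM (median 300.3) in the 7 CAC libraries and at 245, 255, 252, 253 and 256 TPM in mock mice. CAC replicate 3 fell within the mock range and the other 6 were above it, and the difference was 0.23 ± 0.05 (adjusted p = 0.00214). Kcng2, a silent Kv subunit, was at 4.8 to 7.53 TPM (median 5.83) in CAC libraries and at 3.8, 5.03, 3.46, 3.67 and 4.83 TPM in mock mice, a difference of 0.48 ± 0.13 (adjusted p = 0.0106) with 5 of 7 CAC libraries above all mock libraries.

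Kcnj16 was at 24.9 to 29.9 TPM (median 27.9) in CAC libraries and at 34.6, 37.6, 31.0, 31.2 and 42.8 TPM in mock mice. The groups did not overlap, and the difference was -0.34 ± 0.08 (adjusted p = 0.00188). Kcna6 was at 36.2 to 50.9 TPM (median 45.3) in CAC libraries and at 51.7, 55.5, 57.4, 55.3 and 52.6 TPM in mock mice, again without overlap, a difference of -0.3 ± 0.09 (adjusted p = 0.0191). Both of these were among the 4 members (4.04%) whose CAC libraries lay wholly below mock, with Cacna1a and Kcnd1, where 1.76% of all tested genes did. No member lay wholly above, where 1.46% of all tested genes did. Cacna1a, the P/Q-type calcium channel of nerve terminals, averaged 37.3 ± 1.59 TPM in CAC mice and 41.8 ± 1.93 TPM in mock mice and did not pass (adjusted p = 0.198).

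The Kv1 family and its beta subunits gave unlike values at 8 weeks. Kcna6 was lower and Kcnab2 higher, Kcnab3 averaged 118 ± 10.4 TPM in CAC and 99.4 ± 13.7 TPM in mock mice (adjusted p = 0.239), Kcna1 62.6 ± 11.5 TPM in CAC and 51.0 ± 4.76 TPM in mock mice (adjusted p = 0.266), and Kcna2 98.3 ± 10.6 TPM in CAC and 90.6 ± 8.15 TPM in mock mice (adjusted p = 0.52). Kcna5 had the largest positive difference of all members, 0.70 ± 0.27, but did not pass (adjusted p = 0.0919); it is named because of its size, after its values were seen. It was at 8.79 to 16.9 TPM (median 12.1) in CAC libraries and at 6.32, 6.4, 9.09, 8.14 and 7.23 TPM in mock mice. Its adjusted p ran from 0.000347 to 0.256 over 19 alternatives and was under the threshold in 3 of them. Outside this family, sodium channels (9 tested alpha and beta subunits), calcium channels, KCNQ and KCNH subunits, HCN channels, tandem-pore channels and calcium- or sodium-activated channels had no call at 8 weeks. Scn8a averaged 83.9 ± 6.09 TPM in CAC and 82.0 ± 5.06 TPM in mock mice (adjusted p = 0.864) and Scn1a 60.9 ± 6.58 TPM in CAC and 55.9 ± 4.37 TPM in mock mice (adjusted p = 0.552).

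**Figure D3:**
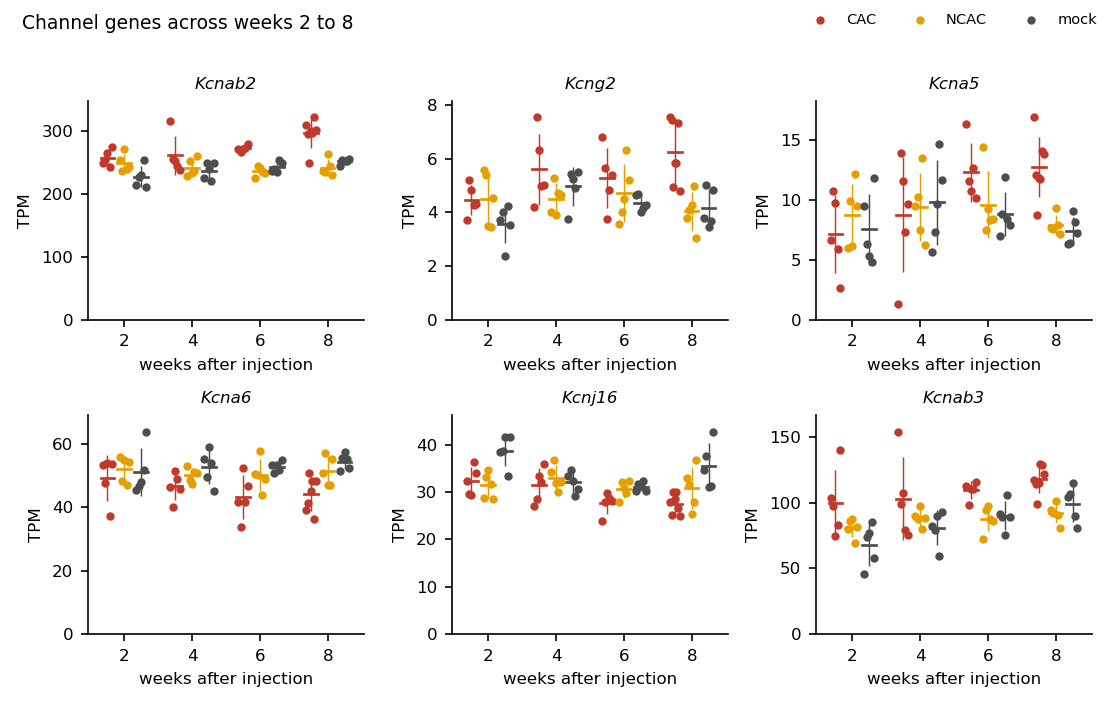
TPM per library (points), group mean (bar) and SD (line) of 6 channel genes at 2, 4, 6 and 8 weeks, with CAC, NCAC and mock side by side in each week and axes starting at 0. At 8 weeks 6 of 7 CAC libraries of Kcnab2 lie above every mock library (245 to 256 TPM), and the CAC libraries of Kcna6 and Kcnj16 lie below the mock libraries.

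Glial markers were lower in the same comparison: 3 of 7 astrocyte markers (Aqp4 by -0.71, Kcnj10 by -0.31 and Slc1a3 by -0.17), 4 of 6 microglia markers and 2 of 7 oligodendrocyte markers passed. Summed astrocyte markers ran from 1606 to 1839 TPM in CAC mice and 1765 to 2287 TPM in mock mice, and microglia markers from 266 to 368 TPM in CAC mice and 378 to 566 TPM in mock mice, with no marker of either list at 0. Hippocampus markers, 6 genes, summed to 172 to 246 TPM in CAC mice and 154 to 164 TPM in mock mice without overlap, and 1 of the 5 tested passed, higher in CAC mice. The part of these lists in the members' differences was not tested. None of 8 excitatory neuron markers passed, with a list median of 0.1, and summed levels of 4626 to 5200 TPM in CAC mice and 4611 to 5113 TPM in mock mice. Kcnab2, Kcng2 and Kcnj16 passed under all 19 alternatives, with adjusted p of 4.96e-06 to 0.0356, 0.00322 to 0.0393 and 0.000657 to 0.024. Kcna6 missed the threshold with the replicate number as a block (adjusted p = 0.0557) and when CAC replicate 1, CAC replicate 6 or mock replicate 3 was left out, with a highest adjusted p of 0.0715. Without CAC replicate 1 of week 4 and CAC replicate 3 of week 8, which stood apart, 8 members passed, 5 higher and 3 lower. The share over all tested genes in that fit is not given here.

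CAC and NCAC mice differed in 4 members at 6 weeks and 2 at 8 weeks. At 6 weeks that is 4.04% of members, where 9.65% of all tested genes passed (8.06% higher and 1.6% lower), and at 8 weeks 2.02%, where 6.03% passed (4.39% higher). Markers moved here too. At 6 weeks oligodendrocyte markers summed to 1886 to 2102 TPM in CAC mice and 2141 to 2776 TPM in NCAC mice, with 5 of 7 called lower, and hippocampus markers to 193 to 220.3 TPM in CAC mice and 149.6 to 192 TPM in NCAC mice, with 0 of 5 called. At 8 weeks 3 of 7 oligodendrocyte and 2 of 6 microglia markers were lower in CAC mice. Their part in the members' differences was not tested. Kcnab2 was higher in CAC mice in both weeks. At 6 weeks it was at 268 to 279 TPM in CAC libraries, all above the 226, 245, 242, 236 and 234 TPM of NCAC libraries, a difference of 0.21 ± 0.05 (adjusted p = 0.0165). At 8 weeks CAC libraries were at 249 to 322 TPM and NCAC libraries at 237, 235, 264, 245 and 231 TPM, a difference of 0.29 ± 0.05 (adjusted p = 0.000169). Kcng2 at 8 weeks averaged 6.24 ± 1.18 TPM in CAC (n = 7) and 4.03 ± 0.709 TPM in NCAC mice (n = 5), a difference of 0.52 ± 0.13 (adjusted p = 0.00736). Kcna5 at 8 weeks was at 8.79 to 16.9 TPM in CAC and 7.17 to 9.31 TPM in NCAC libraries, and Kcna6 at 36.2 to 50.9 TPM in CAC and 47.2 to 57.2 TPM in NCAC libraries, and neither passed. Between CAC and NCAC mice at 4 weeks no member passed by limma, where 0.00691% of all tested genes did. At an unadjusted p under 0.05 there were 10 members and 2360 of the 14473 tested genes. The lowest p-values were those of Scn4b (adjusted p = 0.15) and Cacna2d3 (adjusted p = 0.19).

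The other calls at 6 weeks were of Kcnj14, Hcn2 and Kcnj11. Kcnj14, an inward rectifier, was at 1.29, 1.14, 1.53, 0.84 and 1.01 TPM in CAC mice and at 1.9, 2.16, 1.57, 1.76 and 1.61 TPM in NCAC mice, a difference of -0.38 ± 0.09 (adjusted p = 0.00862) with no overlap. Hcn2 was at 88.3, 91.9, 97.4, 91.9 and 91.6 TPM in CAC mice and at 93.5, 104, 108, 119 and 129 TPM in NCAC mice, a difference of -0.25 ± 0.07 (adjusted p = 0.0244). Kcnj11 was at 38.8, 33.1, 42.6, 40.0 and 41.5 TPM in CAC mice and at 35.1, 33.2, 36.1, 30.3 and 33.2 TPM in NCAC mice, a difference of 0.22 ± 0.07 (adjusted p = 0.0477). In the last 2 genes the groups overlapped. In this comparison the median of all tested genes was 0.08, and with TMM scaling, which brings it to 0.01, 0 members were higher and 5 lower, against 2 and 2. Kcnab2 and Kcnj11 were thus no longer called higher with that scaling. The count was 12 without CAC replicate 2, 10 without NCAC replicate 1, and 2 without CAC replicate 1 or 4 or NCAC replicate 4 or 5. At 8 weeks it was 8 without CAC replicate 3 and 1 without NCAC replicate 5. Shares over all tested genes under these alternatives are not given here.

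Whether the CAC to mock difference itself changed between weeks was tested as an interaction. Between 2 and 8 weeks 2 of the 99 members changed, 2.02%, where 1.28% of all tested genes did (0.67% in the negative direction, like both members). Kcnv1 changed by -0.79 ± 0.17 (adjusted p = 0.0114): at 2 weeks it averaged 61.0 ± 8.34 TPM in CAC and 43.0 ± 10.5 TPM in mock mice (n = 5 each), and at 8 weeks 52.1 ± 7.13 TPM in CAC (n = 7) and 62.8 ± 6.21 TPM in mock mice (n = 5). Kcnh1 changed by -0.51 ± 0.13 (adjusted p = 0.0334), with 48.9 ± 7.1 TPM in CAC and 36.3 ± 4.72 TPM in mock mice at 2 weeks, and 47.2 ± 3.3 and 50.5 ± 5.54 TPM at 8 weeks. The mock mean at 2 weeks was the lowest of the 12 group means in both genes. Without mock replicate 5 of week 2 neither passed, and without mock replicate 4 of week 2 4 members did. Without CAC replicate 1, 2 or 5 or mock replicate 1 of week 2, or CAC replicate 1, 2 or 6 or mock replicate 1, 2 or 3 of week 8, 1 passed. Shares over all tested genes without these single libraries are not given here. No member changed between 6 and 8 weeks by limma, where no tested gene passed. At an unadjusted p under 0.05 there were 0 members and 186 of the 14473 tested genes.

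Some members followed markers of neighbouring regions from library to library, as the plot of region-linked genes shows. Scn4b was at 65.2, 292, 256, 94.7 and 299 TPM in CAC mice at 4 weeks, at 236, 237, 268, 315 and 268 TPM in NCAC mice and at 282, 193, 223, 267 and 241 TPM in mock mice. CAC replicates 1 and 4, the low libraries, stood at -3.16 and -1.22 relative to the median in striatum markers. In CAC replicate 1, Kcna5 was at 1.36 TPM (median of all libraries 9.18 TPM) and Kcna3 at 1.92 TPM (6.86 TPM), while Kcnt1 was at 70.4 TPM (40.7 TPM) and Kcnab3 at 154 TPM (90.6 TPM). In that library 27.3% of members lay more than 0.5 (log2) from their median, against 14.4% of all tested genes.

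Mock replicate 5 at 2 weeks, with the raised thalamus and hypothalamus markers, had Hcn4, the slow HCN channel of thalamus, at 11.4 TPM. At 2 weeks the CAC libraries were at 2.95, 4.11, 2.86, 3.32 and 1.33 TPM, the NCAC libraries at 2.61, 2.85, 2.44, 3.73 and 3.02 TPM and the other mock libraries at 4.82, 3.03, 3.18 and 2.64 TPM. The T-type channel Cacna1g was at 46.8 TPM (median 26.0 TPM) and Cacna2d2 at 56.9 TPM (30.8 TPM) in that library, whereas Kcnv1 was at 28.2 TPM (56.0 TPM) and Kcns1 at 7.07 TPM (15.7 TPM). Of its members 31.3% lay more than 0.5 from their median, against 9.83% of all tested genes, and in mock replicate 1 at 2 weeks 21.2% did, against 4.61%. Kcne2, a small accessory subunit that in mice is prominent in choroid plexus, was at 3.76, 2.06, 0.874, 1.11 and 4.26 TPM in NCAC mice at 2 weeks and at 1.87, 0.0397, 0.127, 0.155 and 0.125 TPM in mock mice, while choroid plexus markers summed to 129 to 2465 TPM and 67.3 to 1203 TPM in the same groups. The part of tissue from these regions in the members' differences was not tested.

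**Figure D4:**
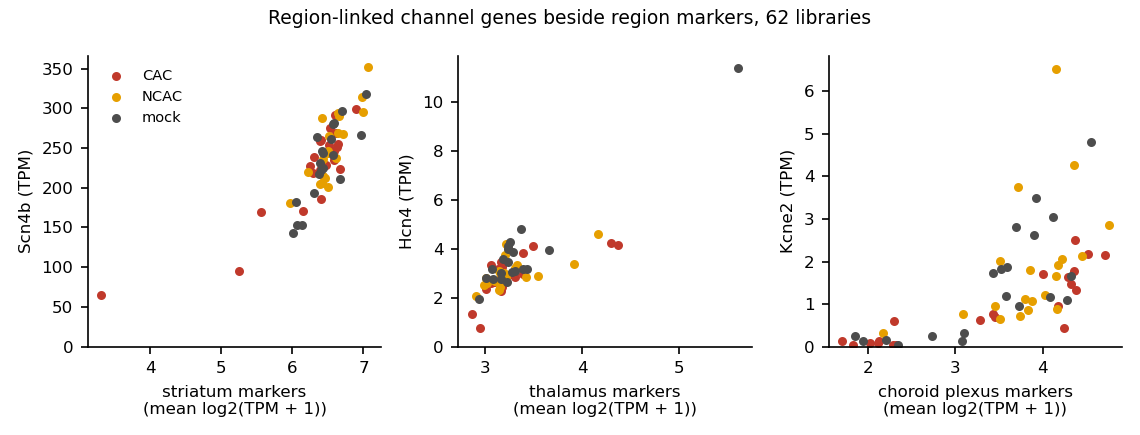
TPM of Scn4b, Hcn4 and Kcne2 (vertical axes from 0) against the mean log2(TPM + 1) of striatum, thalamus and choroid plexus markers, a point per library, coloured by arm. Scn4b is at 65.2 TPM in the library of lowest striatum score (CAC replicate 1 at 4 weeks), Hcn4 at 11.4 TPM in that of highest thalamus score (mock replicate 5 at 2 weeks), and Kcne2 ranges from 0.0397 to 1.87 TPM in the mock libraries of week 2.

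Of 36 genes listed as partners of such channels, 35 were tested. At 2 weeks 3 were higher in CAC than in mock mice (8.57%, where 3.66% of all tested genes were higher). They were Cacng3, an AMPA receptor auxiliary subunit of the calcium channel gamma family (0.32), Dpp10, a Kv4 accessory protein (0.28), and Lgi1, a secreted synaptic protein linked to Kv1 channels (0.23). In NCAC mice 5 were higher than in mock mice (14.3%, where 5.85% of all tested genes were higher). They were the same 3 and the sodium channel partners Fgf14 (0.29) and Fgf12 (0.23). At 8 weeks 2 were lower in CAC than in mock mice and none higher, 5.71% of the list, where 8.57% of all tested genes were called: the active zone scaffold Rims1 (-0.35, adjusted p = 0.00293) and Lrrc55, a subunit of large-conductance calcium-activated channels (-0.39, adjusted p = 0.032). Rims1 was also lower in CAC than in NCAC mice at 6 weeks (-0.26, adjusted p = 0.0453).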

How the data were processed

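Neocortex RNA of 62 libraries in 12 groups was sequenced. Extraction used Trizol and library preparation a stranded mRNA kit, per the labels' protocols; the same text names LLC cells and a 3 week time point, which match none of these groups. The authors deposited 1 table of TPM values for 47643 genes, of which 22257 hold only zeros. The submitters' processing notes name mm10 as build. Aligner, quantifier, annotation and strand setting: not given in the sources used here. Of the symbols, 27 had become dates and were dropped.

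TPM keeps no library total, so depth (45.0 to 50.8 M reads) was taken from steps among low values, of which 86.2% of 206042 were whole reads within a tolerance of 0.05. No 2 libraries were alike beyond a correlation of 0.9943, so each counted as a sample. Coordinates come from the GENCODE annotation and promoters from RefSeq, both of GRCm38. Genes averaging 1 TPM or more were fitted as log2(TPM + 1) over all 12 groups in limma 3.58.1 (R 4.3.3) with a variance trend; 14 comparisons were adjusted separately by Benjamini-Hochberg over 14473 genes. The fit was tested on simulated data.

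The members, channel classes and marker lists were chosen with earlier results of these data known. Named genes were every called member, or the 10 of largest difference in a direction with over 10 calls, the 2 of lowest p where none passed, the 2 highest of each class, and 44 genes with known roles in cortex. Alternatives were a pseudocount of 0.1, no filter, TMM scaling, the replicate number as a block, a lane term at 4 weeks, scores of 6 marker lists (striatum, thalamus, choroid plexus, erythroid, olfactory, hypothalamus with pituitary) as terms, leaving out the 2 libraries more than 3 (log2) from the median in a striatum, thalamus or erythroid score (the rule did not use the hypothalamus and pituitary score, in which mock replicate 5 of week 2 exceeds 3), a fit of just the compared groups, and omitting single libraries one by one. Sequencing lane was the same in all groups within weeks 2, 6 and 8. It was lane 3 in week 2 and lane 4 in weeks 6 and 8. Results of some channel genes are not reported here, so the genes named are fewer than the counts.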

Additional observations from a re-analysis of the deposited data

Results flagged for a closer look

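Among 66 groups of values checked for a sample far from its group, in genes whose values are printed by library, 4 held such a sample, where chance flags about 1 in 20. Kcnab2 in CAC replicate 3 at 8 weeks was at 249.3 TPM, while the other 6 CAC libraries were at 295.3 to 322.1 TPM; this library also had the highest red blood cell marker score, 4.16 above the median of all libraries on the log2 scale. Hcn2 in mock replicate 3 at 6 weeks was at 106.9 TPM, while the other 4 were at 98.51 to 100.8 TPM. Hcn4 in mock replicate 5 at 2 weeks was at 11.35 TPM, while the other 4 were at 2.637 to 4.821 TPM. Kcne2 in mock replicate 1 at 2 weeks was at 1.867 TPM, while the other 4 were at 0.03968 to 0.1553 TPM.

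The difference between CAC and mock mice changed between 2 and 8 weeks by -0.79 in Kcnv1 and by -0.51 in Kcnh1, each by the interaction term of the limma model; neither passed without mock replicate 5 of week 2.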

How the results depend on the processing

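Counts of channel genes that passed moved by more than 1.5 times as follows, and where no value is given the cause was not tested. Except for the 2 week CAC and mock fit alone, shares over all tested genes are not given for alternative fits. These counts therefore do not show whether a shift was particular to channel genes. Without the filter on low values, 9 members passed in CAC against mock and 9 in NCAC against mock at 2 weeks (16 and 15 in the fit reported) and 1 in CAC against mock at 6 weeks (0). With marker scores as terms the counts were 0 and 0 at 2 weeks, 1 and 4 in CAC against NCAC at 6 and 8 weeks (4 and 2), and 1 for the change from 2 to 8 weeks (2). Fitted on only the groups compared they were 0, 0, 2, 4 and 0 in the same order. Without the 2 libraries apart in striatum or erythroid score (CAC replicate 1 of week 4 and CAC replicate 3 of week 8), 1 passed in CAC against mock at 6 weeks, 8 at 8 weeks (4) and 10 in CAC against NCAC at 8 weeks. TMM scaling gave 1 in CAC against mock at 6 weeks. Leaving out each library in turn, counts ran from 2 to 28, 0 to 2, 0 to 1 and 3 to 6 in CAC against mock at 2, 4, 6 and 8 weeks, 0 to 21 in NCAC against mock at 2 weeks and 0 to 0 in its later weeks, 0 to 0, 0 to 3, 2 to 12 and 1 to 8 in CAC against NCAC, and 0 to 4 and 0 to 0 for the changes from 2 to 8 and from 6 to 8 weeks. The 4 week counts of 2 and 3 were without CAC replicate 5, and that of 1 at 6 weeks was without CAC replicate 3.

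Groups share replicate numbers, but the correlation of deviations of same-numbered libraries ran from -0.252 to 0.275 with both signs, so the numbers were not read as pairs. With the replicate number as a block, 18, 0, 0 and 3 members passed in CAC against mock, 14, 0, 0 and 0 in NCAC against mock, 0, 0, 5 and 2 in CAC against NCAC, and 2 and 0 for the changes. A lane term at 4 weeks gave 0 in each comparison. For single genes, 3157 alternative values kept their side of the threshold, 117 lost a call, 26 gained one, and 0 reversed a call. At 28.2 reads per TPM for a 2000 base transcript, depth limits the members of low level most, and the 24 under 1 TPM were not tested.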
